A study of Mus musculus with 6 samples.

Results

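The comparison described here set MC3T3-E1 cells taken immediately (0 h) after rest-inserted fluid flow against cells kept without flow and taken at the same time. It used 2 of the 6 arrays of the series, chosen by their labels, and covered 5718 genes out of 8566 with a named probe. Named probes were counted only among the 15686 that passed the authors' detection filter, not among all on the array. MC3T3-E1 is a mouse line of osteoblast precursors from the calvaria. The study asked how pauses within a bout of flow alter the transcriptional response of bone cells. The rest-inserted flow cells were shaken in 4 bouts of 5 min separated and ended by rests of 10 min, and thus saw 20 min of flow within 60 min. The continuous flow cells received 60 min of flow, and the no flow cells none. Each condition was sampled at 0 h and at 1 h after the end of the flow period. All cells were of the same clone, number 14, and grew in serum-containing medium. Flow came from orbital shaking of multiwell plates, in which the shear stress differs across the well and was only estimated. Because rest-inserted flow held less flow in all and ended in a rest, the pauses and the smaller amount of flow cannot be told apart.

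Each array was hybridized with RNA pooled from 3 experiments, so every condition had 1 array. No difference reported here has a replicate, and no p-value is given. The size of a difference was instead set against the differences of genes of like signal on the same 2 arrays.

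Bone cells sense fluid shear through integrins and focal adhesions, ion channels and the actin cytoskeleton. Within minutes these inputs activate MAP kinases and the transcription cofactors YAP and MRTF. The first genes to respond are the immediate early genes, which need no new protein synthesis and mostly encode transcription factors such as the AP-1, EGR and KLF proteins. YAP acts through TEAD factors on genes such as Ccn1, Ccn2 and Ankrd1. MRTF acts through serum response factor (SRF) on genes of the cytoskeleton.

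The values are log2 signals after quantile normalization by the authors, and a difference of 1 is a doubling of the linear signal. Between 13472 and 14426 of 45281 probes were detected per array, with 13878 on the rest-inserted flow 0 h array and 14426 on the no flow 0 h array. All 5718 genes were detected on both. Of 11 osteoblast markers, 6 had a named probe past the authors' detection filter. Of these, 4 passed the signal minimum, a mean log2 signal of 6 over the 6 arrays. Sparc, a matrix protein of bone, had 13.39 with rest-inserted flow and 13.21 with no flow. Sp7, the osteoblast transcription factor osterix, had 7.94 with rest-inserted flow and 7.89 with no flow. Alpl, the alkaline phosphatase of maturing osteoblasts, was under the minimum, at 4.03 with rest-inserted flow and 3.32 with no flow, and was not called detected on either. Fewer markers of other cell types had a named probe past that filter. They were 1 of 11 adipocyte, 2 of 15 muscle and 2 of 12 endothelial markers. The macrophage and osteoclast list had 4 of 15 and the cartilage list 4 of 13. Passing the minimum were 0 adipocyte and 0 muscle markers, 1 endothelial (Flt1), 1 macrophage and osteoclast (Ctsk) and 2 cartilage markers (Sox9 and Col2a1). Sox9 had 11.72 with rest-inserted flow and 11.77 with no flow. Col2a1 had 9.82 with rest-inserted flow and 9.68 with no flow, and both were brighter than Sp7. The summed linear signal of the cartilage markers was 4329 with rest-inserted flow and 4359 with no flow. That of the macrophage and osteoclast markers was 597 with rest-inserted flow and 594 with no flow.

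Most genes differed little between the arrays. The difference was less than 1.1-fold for 3934 genes (68.8%), the median over all genes was 0.00, and 49.6% of genes were higher with rest-inserted flow. To put a difference on a common scale, the median difference of the 500 genes nearest in mean signal was subtracted and the result was divided by their robust SD, a spread estimate based on the median absolute deviation. The robust SD had a median of 0.12 on the log2 scale. Among the 572 dimmest genes 3 robust SDs corresponded to 1.57-fold, and among the 572 brightest to 1.22-fold. A gene was called when it differed by at least 1.5-fold and by at least 3 robust SDs.

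By this rule 9 genes were higher with rest-inserted flow, 0.157% of those compared, and 5 were lower, 0.0874%. The genes called higher were Ccn2, Klf2, Ccn1, Ankrd1, Ehbp1l1, Cttn, Jun, Dpysl3 and Sec23ip. Those called lower were Sptssa, Terf2, Bmx, Snu13 and H4c18. Just inside the rule lay Sec23ip at 3.08 robust SDs, and just outside it Tagln at 2.95 and Itprip at 2.91, both past 1.5-fold. On the lower side H4c18 was inside at −3.23, and H4c12 outside at −2.87. At the signal minimum, Phf2 (mean 6.00, difference 0.04) was just included and Zfp266 (mean 6.00, difference −0.05) just left out.

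**Figure D1:**
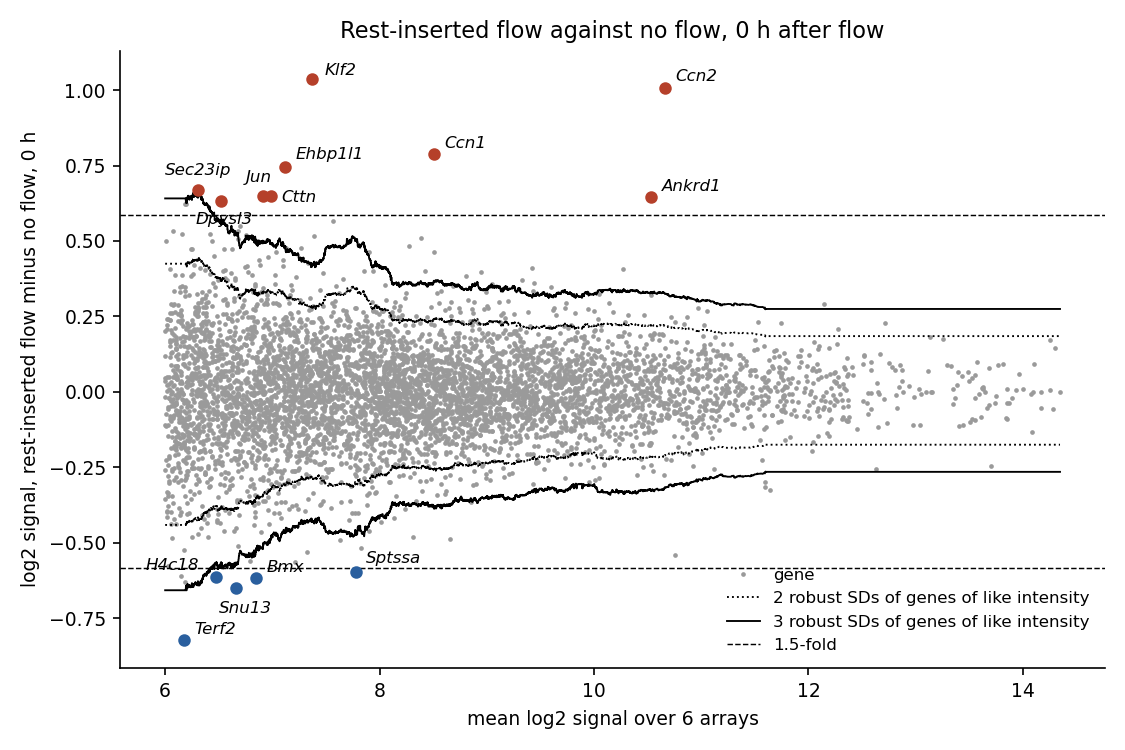
Each point is 1 of 5718 genes. The x axis is the mean log2 signal over 6 arrays and the y axis the log2 signal with rest-inserted flow minus that with no flow at 0 h, with lines at 2 and 3 robust SDs and at 1.5-fold. Ccn2 and Ankrd1 stand apart among bright genes. All genes called higher other than Ccn2, Ccn1 and Ankrd1, and all 5 genes called lower, have a mean signal under 8.

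The choice of the no flow array mattered for part of these calls. Between the 2 no flow arrays themselves, 6 genes were higher at 1 h by the same rule and 21 were lower. Set against the no flow 1 h array, rest-inserted flow at 0 h gave 28 genes higher and 8 lower, and 6 of the 14 called genes remained called (Ccn2, Klf2, Ccn1, Ankrd1, Jun and Bmx). What set the no flow arrays apart was not tested.

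Of the 4 genes with the largest standardized differences, 3 were matricellular or YAP target genes, Ccn2, Ccn1 and Ankrd1, and the other was Klf2. Ccn2, which encodes the matricellular growth factor CTGF, had a log2 signal of 11.05 with rest-inserted flow, 11.90 with continuous flow and 10.04 with no flow at 0 h. At 1 h it had 10.34 with rest-inserted flow, 10.48 with continuous flow and 10.13 with no flow. The difference between rest-inserted flow and no flow at 0 h was 1.01, a 2.01-fold higher signal and 9.35 robust SDs. The rest-inserted flow 0 h value lay above both no flow arrays and above both flow arrays at 1 h.

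Ccn1, which encodes the related matricellular protein CYR61, had 9.18 with rest-inserted flow, 9.41 with continuous flow and 8.39 with no flow at 0 h. The difference of 0.79 was 1.73-fold and 6.33 robust SDs. At 1 h no flow was the highest instead of the lowest, with 7.79 with rest-inserted flow, 7.99 with continuous flow and 8.30 with no flow. Ankrd1, a nuclear and sarcomeric ankyrin repeat protein, followed the same pattern. It had 11.09 with rest-inserted flow, 11.64 with continuous flow and 10.44 with no flow at 0 h, a difference of 0.64 (1.56-fold, 5.86 robust SDs) between rest-inserted flow and no flow. At 1 h it had 9.83 with rest-inserted flow, 10.04 with continuous flow and 10.15 with no flow.

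Among the 19 YAP targets listed, 11 were measured and 3 of these were called higher. A wider band of 2 robust SDs with no fold limit, chosen after the values were seen, held 160 genes above it (2.8% of all) and 161 below it (2.82%). By this band 4 of the 11 YAP targets were above and 0 below, the fourth being Gadd45b, a stress-response regulator, at 0.35. The list was not shifted as a whole. Its median difference was 0.08, and Amotl1, a YAP inhibitor that is itself a target, had −0.20. Of the 11, 6 were higher with rest-inserted flow and 4 lower. At 1 h the median of the list was −0.07. Then 1 of the 11 lay above the band and 4 below it, against 2.82% and 2.66% of all genes.

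The sequence before the start of Ccn1 and Ankrd1 is shown because both hold the letters bound by TEAD factors, GGAATG or its reverse complement CATTCC, and both genes moved together. The promoters were chosen after the values were seen, and Ccn2 had no entry in the promoter table used. The 250 bases before the annotated start are given 5′ to 3′ on the strand of the gene, from RefSeq on GRCm38.p6, with matches in capitals. Ccn1 lies at chr3:145649986-145650235 and Ankrd1 at chr19:36119845-36120094, both on the minus strand.
Ccn1: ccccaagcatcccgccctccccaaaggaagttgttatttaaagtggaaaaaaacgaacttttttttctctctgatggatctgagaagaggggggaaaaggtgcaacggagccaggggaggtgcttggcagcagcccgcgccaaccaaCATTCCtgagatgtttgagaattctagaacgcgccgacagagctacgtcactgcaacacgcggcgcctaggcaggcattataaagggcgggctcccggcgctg
Ankrd1: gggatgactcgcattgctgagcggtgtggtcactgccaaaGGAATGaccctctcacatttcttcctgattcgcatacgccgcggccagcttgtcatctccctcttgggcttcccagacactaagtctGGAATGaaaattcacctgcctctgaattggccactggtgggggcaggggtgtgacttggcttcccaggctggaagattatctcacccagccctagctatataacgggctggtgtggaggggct
The Ccn1 match lies 98 to 103 bases before the start. Those of Ankrd1 lie 118 to 123 and 205 to 210 bases before it. The motif was found on either strand in 12.6% of 32851 promoters of this length and in 10.6% of the promoters of measured genes, so it is common. Of the 6 genes called higher with a promoter in the table, 3 held it (Ccn1, Ankrd1 and Ehbp1l1). By promoters, the unit of the shares above, it was 4 of 7.

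Immediate early genes were the group with the most members above the band. The lists for zinc finger factors, AP-1 subunits and other regulators together named 63 genes. Of these, 33 were measured, 14 had a probe under the signal minimum and 16 had no named probe past the authors' detection filter. Those 16 may lack a named probe on the array or may not have been detected. With rest-inserted flow 13 of the 33 lay 2 robust SDs or more above no flow (39.4%, against 2.8% of all genes). As far below lay 0, against 2.82% of all genes. By list, the 13 were 5 of 10 zinc finger factors, 3 of 4 AP-1 subunits and 5 of 19 other regulators. The median difference was 0.19, and 28 of the 33 genes were higher with rest-inserted flow and 5 lower. By the stricter rule 2 were called higher, Klf2 and Jun.

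Klf2, a shear-responsive Krüppel-like factor, had 7.76 with rest-inserted flow, 8.25 with continuous flow and 6.72 with no flow at 0 h. The difference of 1.04 between rest-inserted flow and no flow was 2.05-fold and 7.40 robust SDs. It was the only member past 2-fold. At 1 h Klf2 had 7.32 with rest-inserted flow, 7.20 with continuous flow and 6.95 with no flow. Both flow arrays thus exceeded the no flow array at both times.

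The AP-1 factors heterodimerize to bind a shared DNA element. Jun had 7.37 with rest-inserted flow, 7.89 with continuous flow and 6.72 with no flow at 0 h, a difference of 0.65 (1.57-fold, 3.89 robust SDs). At 1 h its signal was 6.41 with rest-inserted flow, 6.60 with continuous flow and 6.47 with no flow, all below the 0 h values. Junb had 6.99 with rest-inserted flow and 6.44 with no flow, a difference of 0.55. Fosl2, which encodes FRA2, had 9.56 with rest-inserted flow and 9.19 with no flow, a difference of 0.37. Jdp2, a repressor of AP-1 sites, had 7.09 on both. Fos itself was under the signal minimum, with a difference of 0.32, and Jund likewise, with 0.62.

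Among the zinc finger factors, Zfp36, which encodes the mRNA-destabilizing protein tristetraprolin, had 7.65 with rest-inserted flow and 7.18 with no flow. Egr2 had 7.60 with rest-inserted flow and 7.12 with no flow, a difference of 0.48. Snai1, which represses genes of epithelial adhesion, had 9.72 with rest-inserted flow and 9.37 with no flow. Egr1, a classic sensor of serum and shear, differed by only 0.26, with 9.57 in cells under rest-inserted flow and 9.31 in those without flow. At 1 h Egr1 had 8.95 with rest-inserted flow and 9.32 with no flow, the opposite order. Klf4 (−0.09) and Snai2 (−0.16) were lower with rest-inserted flow, within the band.

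Of the other regulators, Srf had 9.12 with rest-inserted flow and 8.74 with no flow, a difference of 0.39. Gadd45b, the immediate early response genes Ier5l (0.30) and Ier3 (0.28), and Id2 (0.47), an inhibitor of basic helix-loop-helix factors, were also above the band. A second probe of Id2 gave −0.07. Gadd45a (−0.16), Cebpd (−0.05) and Btg1 (−0.04) had small negative differences.

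Continuous flow, set against the same no flow array, gave a median of 0.33 for these 33 genes, and 19 of them lay above the band, against 3.81% of all genes. Since both comparisons share the no flow array, their likeness is not independent. At 1 h, on arrays not used for the 0 h comparison, the median was 0.01 and 17 of the 33 were higher with rest-inserted flow. One member, Klf2, was above the band at 1 h (background 2.82%) and 1, Egr1, below it (background 2.66%).

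**Figure D2:**
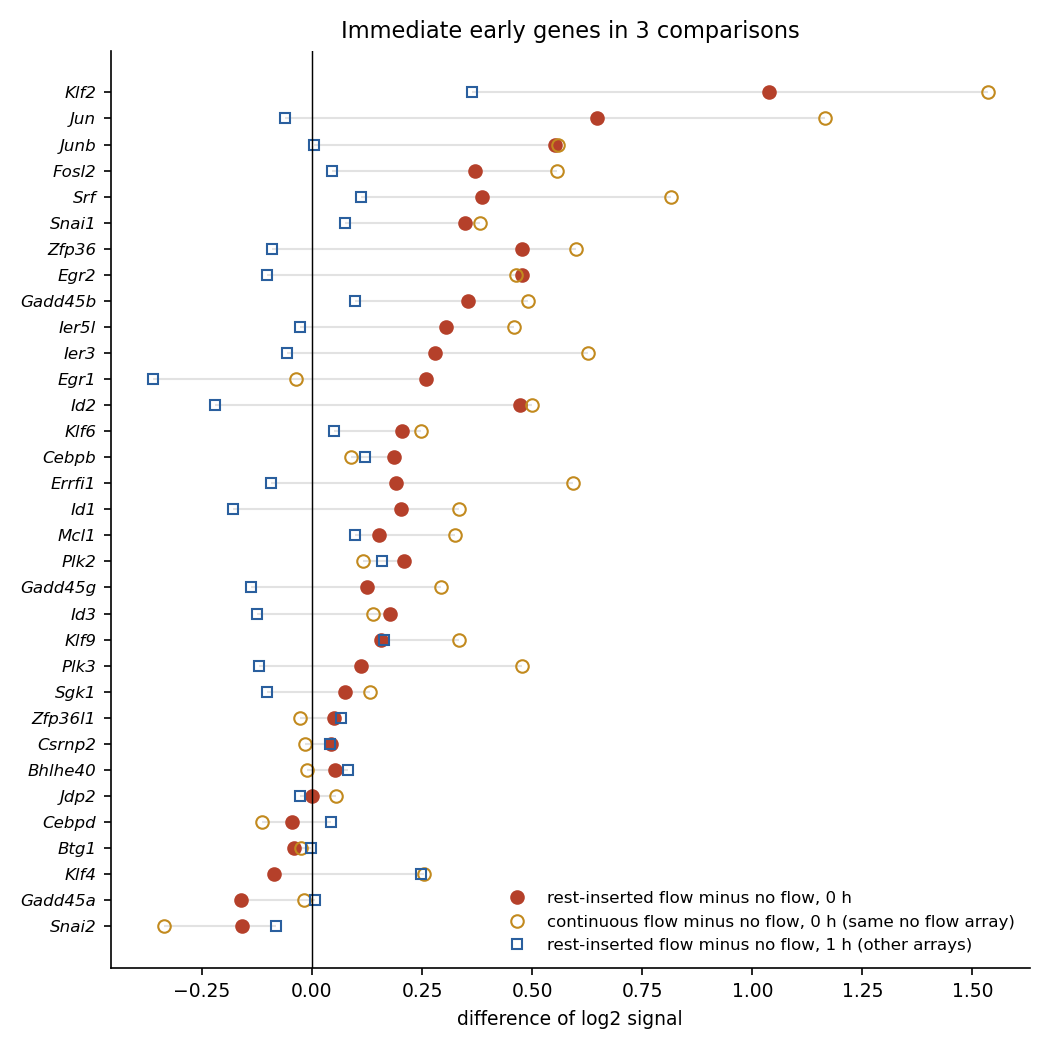
The x axis is a difference of log2 signal for each of the 33 measured immediate early genes, with filled circles for rest-inserted flow minus no flow at 0 h, open circles for continuous flow minus the same no flow array and squares for rest-inserted flow minus no flow at 1 h. Filled circles run between −0.16 and 1.04, and the squares between −0.36 and 0.36.

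The promoters of Klf2 and Jun are shown as those of the 2 called immediate early genes, and that of Srf because SRF acts on its own gene through the CArG box. Klf2 lies at chr8:72318812-72319061 on the plus strand, Jun at chr4:95052223-95052472 and Srf at chr17:46556163-46556412 on the minus strand. Srf was chosen after the values were seen. Matches to the CArG box, to the AP-1 site TGANTCA, to the cAMP response element TGACGTCA and to the TEAD site, on either strand, are in capitals.
Klf2: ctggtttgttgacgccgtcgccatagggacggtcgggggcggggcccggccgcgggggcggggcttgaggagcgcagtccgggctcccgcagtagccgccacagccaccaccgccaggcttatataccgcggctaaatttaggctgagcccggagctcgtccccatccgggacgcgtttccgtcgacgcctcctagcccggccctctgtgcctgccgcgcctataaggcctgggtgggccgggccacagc
Jun: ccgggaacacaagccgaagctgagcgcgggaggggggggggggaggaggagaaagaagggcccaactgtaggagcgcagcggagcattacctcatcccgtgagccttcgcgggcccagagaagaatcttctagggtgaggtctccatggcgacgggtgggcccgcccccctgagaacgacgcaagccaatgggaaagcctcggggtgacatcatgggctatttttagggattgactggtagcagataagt
Srf: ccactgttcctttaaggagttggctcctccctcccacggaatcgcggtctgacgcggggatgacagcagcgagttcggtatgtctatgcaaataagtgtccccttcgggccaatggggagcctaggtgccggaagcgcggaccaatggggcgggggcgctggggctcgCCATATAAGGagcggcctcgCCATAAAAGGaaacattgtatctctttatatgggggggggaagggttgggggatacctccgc
The Srf promoter held 2 CArG boxes, 73 to 82 and 53 to 62 bases before the start. Those of Klf2 and Jun held none of the 4 motifs, which says only that these letters are not in this window. A CArG box was found in 1.47% of all promoters, an AP-1 site in 6.75% and a cAMP response element in 1.55%. Among the 28 measured immediate early genes with a promoter, 3 held a CArG box (Egr2, Srf and Zfp36), 6 a TEAD site, 2 an AP-1 site and 2 a cAMP response element. By promoters, since a gene can have several starts, these shares were 15.0%, 15.0%, 5.0% and 5.0% of 40. In the promoters of measured genes they were 1.28%, 10.6%, 3.89% and 2.8%.

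Genes of the actin cytoskeleton that SRF is known to control were mostly higher with rest-inserted flow. Of 24 measured, 22 were higher, 5 lay above the band and 1 below it, and 0 were called. Of all genes, 49.6% were higher, 2.8% lay above the band and 2.82% below it. The median difference was 0.12. Pdlim7, a PDZ and LIM domain protein of actin filaments, had 10.49 with rest-inserted flow and 10.08 with no flow. Tagln, the actin-bundling transgelin, had 6.41 with rest-inserted flow and 5.79 with no flow, which is 1.54-fold but short of 3 robust SDs. Srf itself and Cnn2 (0.33), a calponin, were also above, although the second probe of Cnn2 gave −0.003. Cald1, which encodes the actin-binding caldesmon, was below at −0.31. At 1 h 20 of the 24 were again higher with rest-inserted flow, against 2875 of all 5718 genes, with a median of 0.10. Above the band were 3, against 2.82% of all genes. Those arrays are not shared with the 0 h comparison.

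Among the called genes, Cttn and Dpysl3 also encode proteins of the cytoskeleton. Cortactin, the product of Cttn, is an organizer of branched actin. Its signal was 7.15 with rest-inserted flow, 6.94 with continuous flow and 6.50 with no flow at 0 h, a difference of 0.65. At 1 h it had 7.24 with rest-inserted flow, 6.91 with continuous flow and 7.17 with no flow, so that only the no flow 0 h array was low. Dpysl3, a cytoskeletal phosphoprotein of the CRMP family, had 6.53 with rest-inserted flow, 6.27 with continuous flow and 5.90 with no flow at 0 h, a difference of 0.63. Its values at 1 h lay between 6.78 and 6.83, above all 3 at 0 h. Against the no flow 1 h array both differences turned negative (−0.03 for Cttn and −0.27 for Dpysl3).

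Ehbp1l1, a protein of membrane trafficking, had 7.47 with rest-inserted flow, 7.42 with continuous flow and 6.72 with no flow at 0 h, a difference of 0.75 (1.68-fold). At 1 h its 3 values lay between 6.96 and 7.13. Sec23ip, a partner of the COPII coat at endoplasmic reticulum exit sites, had 6.91 with rest-inserted flow and 6.24 with no flow, a difference of 0.67. It differed from the other genes called higher in its continuous flow value of 6.07. On the 5 arrays other than rest-inserted flow 0 h it lay between 6.07 and 6.34.

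**Figure D3:**
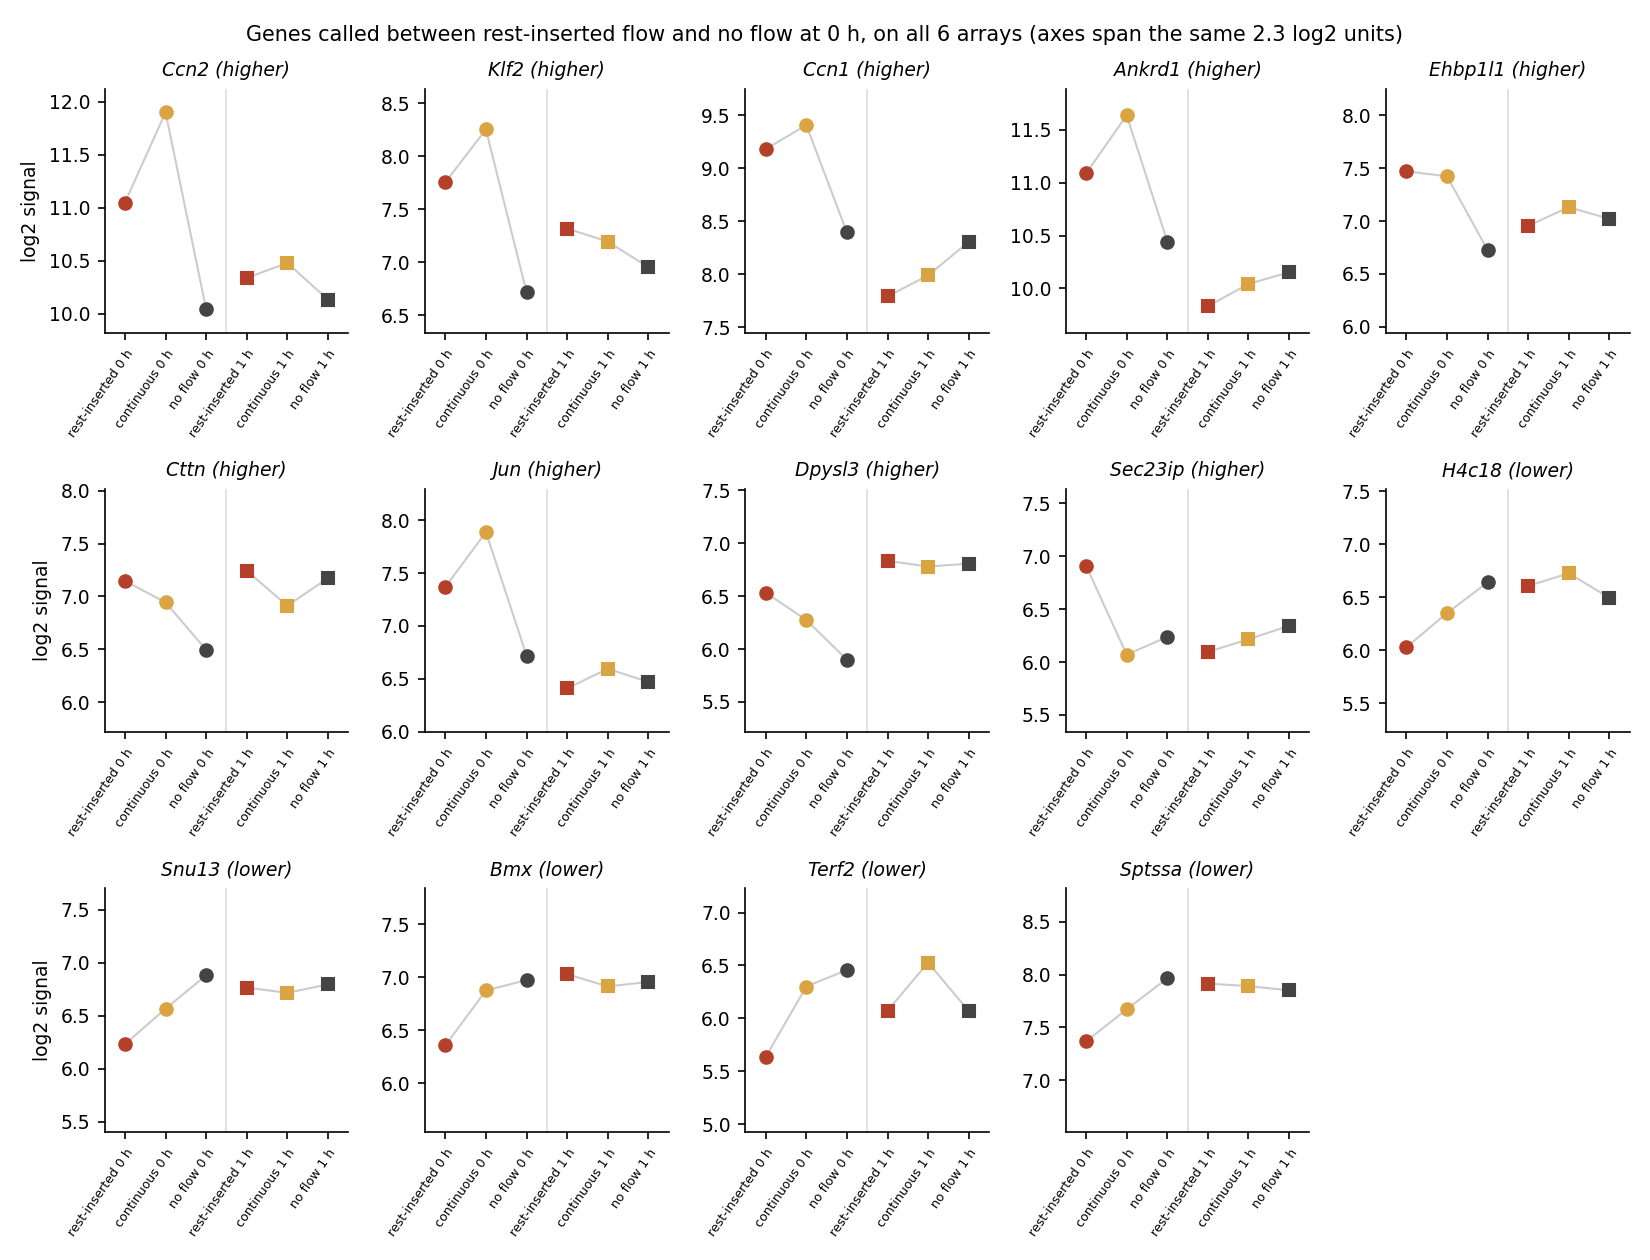
Each panel is a called gene, with the log2 signal on the y axis and the 6 arrays on the x axis, circles for 0 h and squares for 1 h. In the 5 panels of genes called lower the rest-inserted flow 0 h array is the lowest of 6, whereas among the 9 genes called higher it is the highest of 6 for Ehbp1l1 and Sec23ip.

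Feedback regulators of MAP kinases were represented by 7 measured genes, of which 3 were above the band and 0 below. Of all genes, 2.8% were above it and 2.82% below. Dusp1, a nuclear phosphatase of p38 and JNK, had 8.02 with rest-inserted flow and 7.45 with no flow, a difference of 0.56 that fell short of 1.5-fold while passing 3 robust SDs. Dusp10 (0.53) and Dusp16 (0.33), which also act on p38 and JNK, were above the band. For Dusp10 the no flow 0 h array was low, at 5.81. Rest-inserted flow at 0 h had 6.34 and the no flow 1 h array 6.32. Dusp6, a phosphatase of ERK, had a difference of 0.11. Of the 20 measured MAP kinases and upstream kinases, 0 were above and 0 below the band. Their median was 0.08, and the farthest from 0 on the standardized scale was Mapk6, at 0.28.

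The 5 genes called lower had no evident common list. Sptssa, a small subunit of serine palmitoyltransferase, had 7.37 with rest-inserted flow and 7.96 with no flow, a difference of −0.60. Terf2, a component of the telomere-binding shelterin complex, had 5.64 with rest-inserted flow and 6.46 with no flow, a difference of −0.82, the most negative of all genes. Bmx, a tyrosine kinase of the Tec family, had 6.36 with rest-inserted flow, against 6.97 with no flow. Snu13, a protein of small nuclear and nucleolar ribonucleoproteins, had 6.23 with rest-inserted flow, against 6.88 with no flow. H4c18, one of many near-identical histone H4 genes that a probe may not separate, had 6.03 with rest-inserted flow, against 6.64 with no flow. Continuous flow gave values between those of rest-inserted flow and no flow at 0 h for all 5. At 1 h rest-inserted flow and no flow differed by at most 0.11 in these genes. Sptssa was of middling brightness, with a mean log2 signal of 7.78. The other genes called lower were dimmer, with means under 7, and the Terf2 signal was under 7 on every array.

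Members of the ribosomal, proteasome and respiratory chain lists lay below the band in 5.88%, 9.68% and 4.17%, against 2.82% of all genes, the last being near that background. Of 51 cytosolic ribosomal protein genes 3 lay below the band and 0 above, with a median of −0.03. Rpl7a had 10.41 with rest-inserted flow and 10.95 with no flow, a difference of −0.54 and −5.27 robust SDs that fell short of 1.5-fold. Rps25 was at −0.30 and Rps3a1 at −0.26. Genes of this family have many processed copies in the genome, and a probe may not separate them. Of 31 proteasome genes 3 were below and 0 above, with a median of −0.06, led by Psmd14 (−0.42), the deubiquitinase of the lid. Of 72 genes of the respiratory chain and ATP synthase 3 were below and 0 above, among them the assembly factors Sdhaf1 (−0.40) and Sdhaf2 (−0.36), and the median was −0.04. At 1 h, with rest-inserted flow against no flow, 5 ribosomal protein genes were above the band and 1 below. Of the respiratory chain genes 3 were above and 1 below, and 0 proteasome genes were beyond it. Of all genes, 2.82% were above the band at 1 h and 2.66% below.

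Cell cycle lists had almost no member beyond the band at 0 h, but most S phase and mitosis genes were slightly lower with rest-inserted flow. For 21 S phase genes the median was −0.11, with 15 lower and 6 higher (28.6%, against 49.6% of all genes). Of these, 1 was below the band (Rfc4, a clamp loader subunit, −0.30) and 0 above. The 1 below is 4.76%, against 2.82% of all genes. For 17 genes of G2 and mitosis the median was −0.07, with 14 lower, 3 higher (17.6%) and 0 beyond the band. For 12 G1 cyclins and inhibitors it was 0.03, again with 0 beyond the band. At 1 h, 7 of the S phase genes and 6 of the G2 and mitosis genes were higher, with medians of −0.09 and −0.03. Of all 5718 genes, 2875 were higher at 1 h. Below the band at 1 h were 2 of the 21 S phase genes, against 2.66% of all genes, and 0 of the G2 and mitosis genes.

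**Figure D4:**
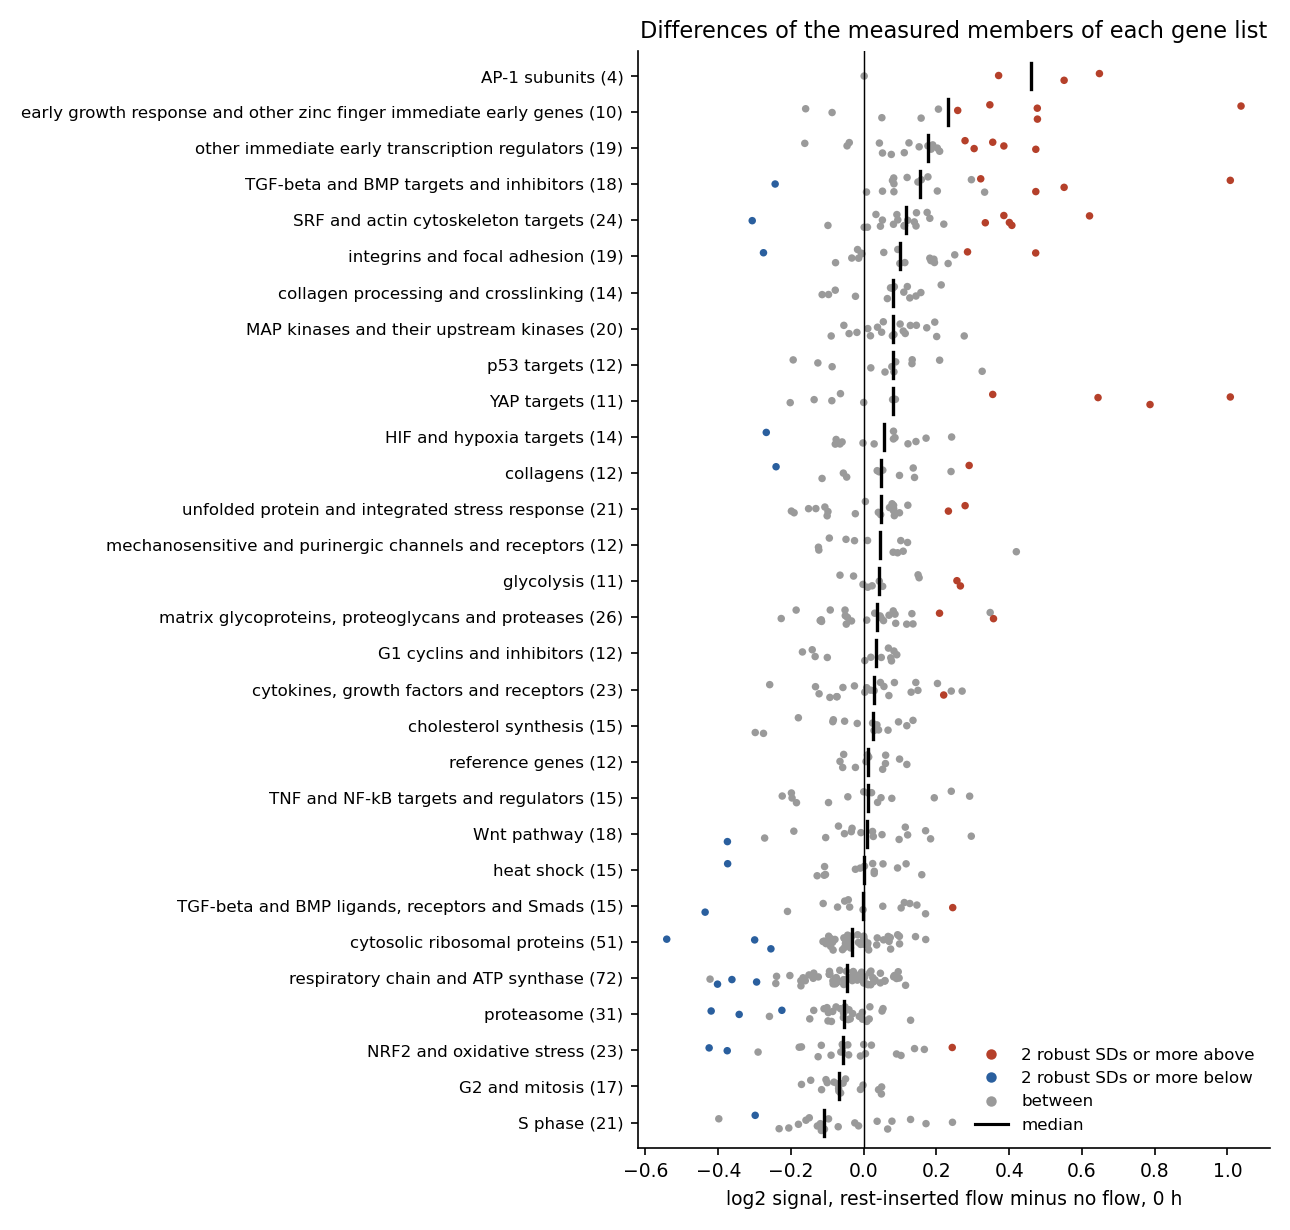
Each row is a gene list with the number of measured members in brackets, each point a member, and the x axis the log2 signal with rest-inserted flow minus that with no flow at 0 h. The bar is the median of the row, which is 0.46 for the 4 AP-1 subunits, 0.01 for the 12 reference genes and −0.11 for the S phase genes.

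Bone matrix and differentiation genes differed little. Col1a1 encodes the alpha1 chain of bone collagen and had 12.38 with rest-inserted flow, 12.32 with continuous flow and 12.09 with no flow at 0 h, a difference of 0.29 (1.22-fold, 3.17 robust SDs). Col1a2, which encodes its partner chain, had 10.43 with rest-inserted flow and 10.68 with no flow, so the chains differed in opposite directions. Of 12 collagens 1 was above and 1 below the band (8.33% each, against 2.8% and 2.82% of all genes). In lists this small, 1 member makes a large share. Mmp2 (0.21), a gelatinase, and Plau (0.36), the urokinase activator, were the 2 of 26 matrix glycoproteins, proteoglycans and proteases above it (7.69%). Of the 8 measured osteoblast differentiation genes 0 were above and 1 below (12.5%, against 2.82% of all genes). The latter was Twist2 at −0.58, a repressor of RUNX2. The median of that list was −0.09.

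TGF-beta and BMP target genes had a median of 0.15, with 17 of 18 higher with rest-inserted flow, against 49.6% of all genes. Of the 18, 4 were above the band and 1 below it, against 2.8% and 2.82% of all genes. The 4 were Ccn2, Junb, Id2 and Fst, the activin antagonist follistatin (0.32), of which the first 3 are also in lists given above and Id2 had −0.07 on its second probe. Id4 was below at −0.24. At 1 h 10 of the 18 were higher with rest-inserted flow, against 2875 of all 5718 genes, with a median of 0.04. Among the ligands, receptors and Smads, Tgfb2 was below the band (−0.44) and the receptor Tgfbr1 above it (0.24), and the median over 15 genes lay close to 0. In the integrin and focal adhesion list Itga5, the fibronectin receptor subunit, had 0.47 and Bcar1, the stretch-sensitive adaptor p130Cas, had 0.29, both above the band. Cav1, the coat protein of caveolae, was below at −0.28. Of the 19 members measured, 10.5% were thus above the band and 5.26% below, against 2.8% and 2.82% of all genes.

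Several groups tied to bone mechanobiology showed no member beyond the band. These were calcineurin and cAMP responsive genes (9 measured), mechanosensitive and purinergic channels and receptors (12), TNF and NF-kB targets (15), and the 2 measured genes of prostaglandin synthesis. The inducible prostaglandin synthase Ptgs2 had no measured value here. Over all genes 2.8% lay above the band and 2.82% below, so lists this small could easily hold none. Of the genes that the study followed by RT-PCR, 7 were measured, of which Col1a1 alone was above the band (14.3%). The others were between −0.17 for Hmox1 and 0.17 for Tnfrsf11b, which encodes osteoprotegerin. By RT-PCR the paper reported Hmox1 as raised by rest-inserted flow only, without a significant difference between the flows. It reported Tnfrsf11b and Rcan1 (DSCR1) as lowered by continuous flow only. On the arrays, continuous flow minus no flow at 0 h was 0.36 for Tnfrsf11b and 0.48 for Rcan1. These array differences thus ran opposite to RT-PCR, and why was not tested. All 12 measured reference genes stayed within the band, with differences between −0.07 (Pgk1) and 0.12 (Tbp).

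Additional probes of the same gene gave a technical repeat on the same RNA. Of the called genes, Ccn2, Ccn1 and Ankrd1 had more than 1 probe over the signal minimum. Their next brightest probes gave 0.88 for Ccn2, 0.72 for Ccn1 and 0.83 for Ankrd1, and the third Ccn1 probe gave 0.69. Over 1597 genes with at least 2 probes, the difference had the same sign on both in 58.5%, and Pearson's r across genes was 0.30. The share with the same sign was 53.5% among 1132 genes under 1 robust SD, 69.9% among 392 between 1 and 2, 72.6% among 62 between 2 and 3, and 9 of 11 beyond 3. Of 12 named genes beyond the band with another probe, 7 had the same sign on the next brightest probe and 5 did not. On the brightest and the next probe, Cnn2 had 0.33 and 0.00, Id2 0.47 and −0.07, the phosphofructokinase gene Pfkm 0.26 and −0.13, the sulfiredoxin gene Srxn1 0.24 and −0.01, and the zinc transporter gene Slc39a7 −0.29 and 0.33. Probes of a gene can target different transcripts, and genes are not independent replicates.

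**Figure D5:**
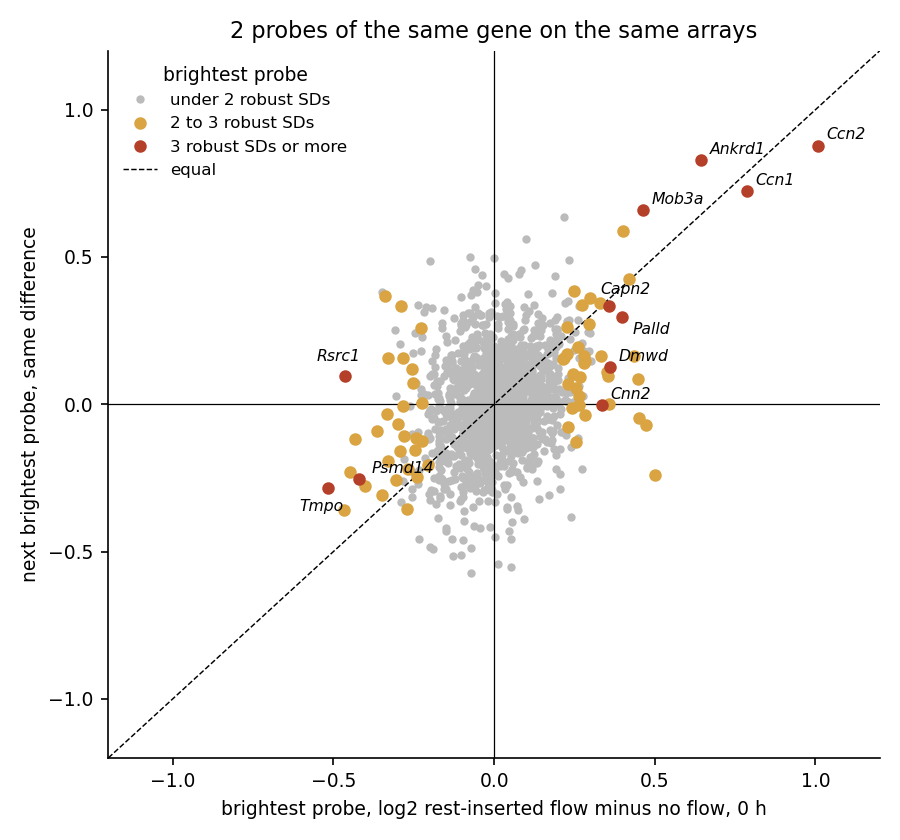
Each point is a gene with at least 2 probes, with the rest-inserted flow minus no flow difference of the brightest probe on the x axis and that of the next brightest on the y axis, both in log2 units. Ccn2, Ccn1 and Ankrd1 lie near the line of equality, and Cnn2 and Rsrc1 do not.

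Few of the 0 h differences were present at 1 h. Across the 5718 genes the difference between rest-inserted flow and no flow at 1 h correlated with that at 0 h at r = 0.03, over genes that share 2 arrays per time point and no array between them. Of the 160 genes above the band at 0 h, 10 (6.25%) were above it at 1 h and 7 (4.38%) below. Of the 161 genes below it at 0 h, 7 (4.35%) were below it at 1 h and 15 (9.32%) above. Of all genes, 2.82% were above the band at 1 h and 2.66% below. Among the genes called higher at 0 h, Klf2 and Ccn2 were still above the band at 1 h, with differences of 0.36 and 0.20.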

How the data were processed

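The deposited intensity values came from 6 single-colour Illumina bead arrays, with background removed by the authors in GenomeStudio. The detection p-value deposited by the authors beside each signal compares it with negative controls. For the deposited log2 values the authors applied quantile normalization, a floor of 10 and a log2 transformation, and kept 15686 probes detected at a p-value under 0.01 on at least 1 array. Repeating these steps on the intensities gave the same values within 5.0e-08. For rest-inserted flow at 1 h, part of the detection p-values repeat the signal, and detection was read from the signal instead.

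Gene symbols came from the platform table. Of 13183 probes with a usable symbol, 13175 matched a RefSeq gene, and 0 symbols changed. Probes with no symbol or several, and RIKEN names, were left out. The probe with the highest mean stood for a gene. Differences, their scaling by the 500 genes of nearest signal and the calls were computed in Python with numpy and pandas, and were tested on simulated data. No test was run, since each condition had 1 array. Precision is limited by the number of arrays. The named genes were those called, up to 5 members of each list with the largest standardized difference, and all measured RT-PCR and reference genes. Genes outside this were named after their values were seen. The members and lists were chosen with earlier results of these data known.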

Additional observations from a re-analysis of the deposited data

Results flagged for a closer look

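In 8 of the named genes the difference between rest-inserted flow and no flow lay beyond 2 robust SDs in opposite directions at 0 h and at 1 h. With 1 array per condition, the change between time points was not tested, and it is given here as the 0 h difference minus the 1 h difference. Ccn1 differed by 0.79 at 0 h and −0.51 at 1 h, a change of 1.30. Ankrd1 differed by 0.64 and −0.32, a change of 0.96. Dusp10, a phosphatase of p38 and JNK, differed by 0.53 at 0 h and −0.44 at 1 h (0.97), and Egr1 by 0.26 and −0.36 (0.62). Between the no flow arrays themselves, 1 h minus 0 h was 0.52 for Dusp10 and 0.004 for Egr1. The adaptor Bcar1 differed by 0.29 and −0.28 (0.57). The other 3 ran the opposite way. Me1, the cytosolic malic enzyme, differed by −0.38 at 0 h and 0.36 at 1 h (−0.73), Rps25 by −0.30 and 0.38 (−0.68), and Rps3a1 by −0.26 and 0.22 (−0.47).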

How the results depend on the processing

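Each value was computed under 10 other settings. The main counts were 9 genes higher and 5 lower with rest-inserted flow. A signal minimum of 5 gave 15 higher and 8 lower, and one of 8 gave 3 higher and 0 lower, since 11 of the 14 genes are dimmer than that. No flow at 1 h in place of no flow at 0 h gave 28 higher and 8 lower. The cause was not tested. There Cttn (−0.027) and Dpysl3 (−0.27) turned negative. Of the immediate early genes 13 were above the wider band, and 7 with the signal minimum of 8, where fewer genes were measured. Their median lay between 0.16 and 0.27 under all 10 settings. Median scaling, a floor of 50 and a spread from 1000 genes kept all 14 calls. The detection filter removed no gene and so could not change a call. The mean of all probes also kept the 14, but among them only Ccn2, Ccn1 and Ankrd1 had several probes to average. A spread from 200 genes lost Sec23ip, and the mean of both no flow arrays lost Cttn, Dpysl3, H4c18 and Sptssa. Of 1953 values for the 204 named genes, 1802 moved by less than 1 robust SD.

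No array was left out, since each condition has 1. No paired analysis was possible because the 0 h comparison holds a single pair of arrays. A fit of flow and time over all 6 arrays, which would average both times, was not run. Signal over background limits the dimmest genes, where 3 robust SDs exceed 1.5-fold. The spread over genes of like signal holds array noise and shared small changes together, and the spread between experiments is unknown.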

Other observations

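Genes dimmer than the signal minimum held further listed genes, which differed in both directions. Fos (0.32) and Jund (0.62) were higher with rest-inserted flow, Nr4a2 (−0.25) and Klf5 (−0.29) were lower, and Csrnp1 differed by 0.00. Between a mean log2 signal of 5 and 6 lay 1110 genes. Of these, 6 were called higher and 3 lower by the rule used above, against 9 and 5 of the 5718 brighter genes. The called dim genes were all detected on both arrays and all named after their values were seen. Dusp8, a phosphatase of JNK and p38, had 6.54 with rest-inserted flow, 6.76 with continuous flow and 5.45 with no flow at 0 h, a difference of 1.08 between rest-inserted flow and no flow. Egr3, an early growth response factor, had 6.50 with rest-inserted flow, 7.20 with continuous flow and 5.54 with no flow, a difference of 0.95. At 1 h, rest-inserted flow minus no flow gave −0.27 for Dusp8 and −0.37 for Egr3. Smad6, an inhibitory Smad of BMP signaling, had 5.57 with rest-inserted flow and 4.78 with no flow at 0 h.

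The others higher were Gstcd (0.94), Clstn1 (0.83), a calsyntenin, and Tsr2 (0.82), a ribosome biogenesis factor. Those lower were Oard1 (−1.10), a hydrolase of ADP-ribosylation, Pom121, a nucleoporin with 4.74 with rest-inserted flow and 5.74 with no flow, and Cdk5rap1 (−0.93), a tRNA-modifying enzyme of mitochondria. In these genes the robust SD lay between 0.24 and 0.28, against 0.09 among the 572 brightest genes, and no second probe or replicate array was examined for these 9 genes.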
